A study of Mus musculus with 24 samples.

Results

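The replication licensing genes described here are 10 mouse genes: the MCM helicase subunits Mcm2, Mcm3, Mcm4, Mcm5, Mcm6 and Mcm7, the loading factors Cdc6 and Cdt1, the CDT1 inhibitor Gmnn (geminin) and the sliding clamp Pcna. They were taken by gene name, and all 10 were found in each of the 3 deposited expression tables, which list 46078, 46078 and 55573 genes. All 10 also passed the filter on low values in every table.

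RNA sequencing of pooled oocytes and embryos gave 24 libraries in 12 groups of 2. PR-DUB overexpression (OE) and control (CTR) embryos, and KDM6B OE and CTR embryos, were collected at the 2-cell and 4-cell stages from a B6/DBA x PWK cross. Eed matKO embryos, whose mothers are labelled Eed CKO, and Eed CTR embryos were collected at the 4-cell stage from a B6/129mixed x PWK cross. Late 2-cell embryos from B6/DBA parents and MII oocytes from B6/DBA females carry no manipulation in their labels. PR-DUB removes ubiquitin from histone H2A, KDM6B is a demethylase of the H3K27me3 mark, and EED belongs to the complex that writes that mark. The PR-DUB 4-cell libraries were made from 16 embryos each in OE and 19 each in CTR, the PR-DUB 2-cell libraries from 15 embryos each, and the KDM6B 2-cell libraries from 17 each in OE and from 17 and 18 in CTR. What the control embryos received and which Cre line removed Eed are not in the labels. Nor do they give separate collections for the 2 libraries of a group, so p-values measure only the spread between these libraries, which may be technical. The manipulation field of the 2 KDM6B OE 2-cell libraries names PR-DUB instead, and the title of the 2 Eed matKO libraries says OE.

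Before each round of DNA synthesis, the origin recognition complex and CDC6 bind DNA and, with CDT1, load a ring of MCM2 to MCM7 onto it. This step is called licensing, and the loaded ring later becomes the core of the replicative helicase. Geminin binds CDT1 and blocks further loading once DNA synthesis has begun, and PCNA holds the polymerases on DNA and marks CDT1 for destruction. Oocytes store transcripts that the embryo uses until its own genome becomes active, which in the mouse happens mainly at the 2-cell stage.

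Levels were deposited as FPKM, read fragments scaled to gene length and to the size of the library, so levels can be compared between genes. The 10 genes rest on an estimated 417 to 11902 fragments per library. The stage labels were set against marker lists. The summed FPKM of 9 oocyte markers was 295 and 340 in late 2-cell libraries and 3879 and 3886 in MII oocytes. It was 95.9 to 131 in KDM6B and 67.2 to 75.7 in PR-DUB 4-cell libraries. At the 2-cell stage it was 497 to 766 in KDM6B and 313 to 360 in PR-DUB libraries, so the 2 series did not overlap. The 10 cumulus and granulosa markers summed to at most 1.57 FPKM in embryos, with every one of them under 1 FPKM in each embryo library, and 8 sperm markers to at most 5.73. Both sums were higher in the MII oocyte libraries. The cumulus and granulosa markers summed there to 7.52 and 7.20 FPKM, of which Cyp19a1 had 6.59 and 6.19. The sperm markers summed there to 6.66 and 9.04 FPKM, of which Prm2 had 6.27 and 8.94.

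The targeted genes were read before any other result. Kdm6b stood at 547 and 597 FPKM in KDM6B OE and 401 and 571 FPKM in KDM6B CTR 4-cell libraries, and at 9809 and 14240 FPKM in KDM6B OE and 14590 and 14740 FPKM in KDM6B CTR 2-cell libraries. In the PR-DUB libraries Kdm6b stood at 5.24 to 26.4 FPKM, so all 8 KDM6B libraries, CTR included, were far above them. Bap1 encodes the deubiquitinase within PR-DUB and had 8.81 and 10.6 FPKM in OE and 6.02 and 6.20 FPKM in CTR 4-cell libraries, and at 20.3 and 22.0 FPKM in OE and 16.1 and 18.3 FPKM in CTR 2-cell libraries. Eed stood at 22.7 and 26.9 FPKM in matKO and 28.5 and 33.1 FPKM in CTR embryos, and neither it nor Bap1 nor Kdm6b was called different in its own comparison. The FPKM of Eed counts all its exons, so it does not by itself check which part of the gene was deleted.

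Promoter windows of RefSeq (GRCm38.p6), from 250 bases before to 50 bases after a transcription start, were found for 8 of the 10 genes, with 9 windows in all because Mcm7 has 2. Mcm4 and Gmnn had none. The windows of Mcm2, Mcm3, Mcm6, Mcm7 and Cdt1 are shown because these 5 genes and Gmnn are those whose stage change differed between the KDM6B and PR-DUB controls. Capitals mark matches, on either strand, to the E2F consensus spelled TTTCCCGC, TTTCGCGC, TTTGCCGC or TTTGGCGC. E2F factors are the family that switches on S-phase genes in mammalian cells. The Mcm3 window is chr1:20820263-20820562 and the Mcm6 window chr1:128359656-128359955, both on the minus strand. The Mcm7 window shown is chr5:138171834-138172133 and the Mcm2 window chr6:88898731-88899030, both on the minus strand. Of the 2 Mcm7 windows the one shown holds matches, and the other, chr5:138171217-138171516, holds none. The Cdt1 window is chr8:122567765-122568064 on the plus strand.
Mcm3: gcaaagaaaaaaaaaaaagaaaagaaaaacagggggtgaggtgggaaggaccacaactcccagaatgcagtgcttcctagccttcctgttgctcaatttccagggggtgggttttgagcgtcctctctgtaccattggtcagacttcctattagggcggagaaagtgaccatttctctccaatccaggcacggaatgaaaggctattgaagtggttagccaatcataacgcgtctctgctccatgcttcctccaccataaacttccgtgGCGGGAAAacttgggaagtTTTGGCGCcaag
Mcm6: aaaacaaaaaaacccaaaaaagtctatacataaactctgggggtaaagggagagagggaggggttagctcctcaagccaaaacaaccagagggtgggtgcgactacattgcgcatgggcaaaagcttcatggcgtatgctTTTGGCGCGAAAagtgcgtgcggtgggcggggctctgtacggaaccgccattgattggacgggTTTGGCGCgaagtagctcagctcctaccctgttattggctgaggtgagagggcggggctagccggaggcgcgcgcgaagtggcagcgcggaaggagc
Mcm7: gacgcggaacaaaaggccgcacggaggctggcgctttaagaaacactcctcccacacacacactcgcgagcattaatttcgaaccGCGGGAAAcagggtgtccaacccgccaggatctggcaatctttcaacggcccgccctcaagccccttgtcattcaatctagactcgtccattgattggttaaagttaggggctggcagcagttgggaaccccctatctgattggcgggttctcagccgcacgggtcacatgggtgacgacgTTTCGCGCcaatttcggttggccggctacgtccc
Cdt1: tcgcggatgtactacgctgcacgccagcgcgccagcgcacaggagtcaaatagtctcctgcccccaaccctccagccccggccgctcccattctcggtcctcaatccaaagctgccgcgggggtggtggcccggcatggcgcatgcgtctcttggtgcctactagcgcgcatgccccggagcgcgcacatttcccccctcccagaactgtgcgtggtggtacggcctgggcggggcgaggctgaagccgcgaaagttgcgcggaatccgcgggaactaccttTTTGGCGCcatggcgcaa
Mcm2: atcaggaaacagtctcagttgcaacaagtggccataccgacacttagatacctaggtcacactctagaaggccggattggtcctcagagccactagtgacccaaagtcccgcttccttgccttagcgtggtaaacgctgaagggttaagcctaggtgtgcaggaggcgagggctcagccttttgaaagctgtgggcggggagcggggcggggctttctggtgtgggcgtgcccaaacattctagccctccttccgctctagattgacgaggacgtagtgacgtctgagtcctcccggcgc

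The matches lay at 20 and 39 bases after the start in Mcm3, at -110, -106 and -47 in Mcm6, at -165 and 17 in Mcm7, and at 33 in Cdt1, where position 1 is the start base. The matches at -110 and -106 in Mcm6 overlap and lie on opposite strands. Mcm5 (-153 and -149, also overlapping) and Cdc6 (-138) held matches too, so 6 of the 8 genes with a window had at least 1 match, against 704 of 27025 genes with a RefSeq window (2.6%). Counted by window, 6 of 9 held a match, against 744 of 32851 RefSeq windows (2.26%). Mcm2, shown last, and Pcna held none of these letters in their windows. The CCAAT motif, searched on both strands, was in 7 of the 9 windows (77.8%), against 37.4% of all windows. By gene it was in a window of 6 of the 8, and its share over all genes was not computed. A match is only a description of the letters.

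Across the 24 libraries the 6 helicase subunits were not held at one common level. Among them Mcm6 had the highest FPKM of the 6 in 19 libraries, Mcm4 in 3 and Mcm2 in 2. Mcm7 was the lowest in 13 libraries and Mcm5 in 11. The highest subunit exceeded the lowest 4.06-fold to 12-fold within a library. Mcm6 is annotated on mm10 at chr1:128331590-128359664 and spanned 35.2 to 134 FPKM, with a median of 80.7. Mcm7 at chr5:138164583-138172422 spanned the widest range, 4.61 to 56.9 FPKM or 12.3-fold, and Mcm5 at chr8:75109569-75128439 ranged 2.56-fold, from 11.4 to 29.2 FPKM. These ranges join 3 tables that were normalised separately.

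The other genes had their own levels. Gmnn, at chr13:24751845-24761923, had the highest median of the 4 factors around the helicase, 101 FPKM, and spanned 41.5 to 173 FPKM. In both MII oocyte libraries, Pcna stood above Gmnn. In MII oocyte replicate 2, Cdt1 did too, at 45.3 FPKM against 42.95 FPKM for Gmnn. Cdt1, at chr8:122568015-122573554, spanned 32.9 to 98.0 FPKM. Pcna, at chr2:132249162-132253314, spanned 28.2 to 71.1 FPKM. Cdc6, at chr11:98907801-98923940, spanned 7.96 to 62.3 FPKM, a 7.82-fold range. Exons of Mcm7 overlap those of Cops6 and Ap4m1 on the opposite strand. The library kit is stranded, but the sources used here do not give whether quantification used strand. Cops6 stood at 20.9 to 46.8 FPKM in the PR-DUB and KDM6B libraries, and its part in the Mcm7 values was not tested. The Pcna pseudogene Pcna-ps2 was listed at 1.09 to 6.74 FPKM in the same libraries.

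**Figure D1:**
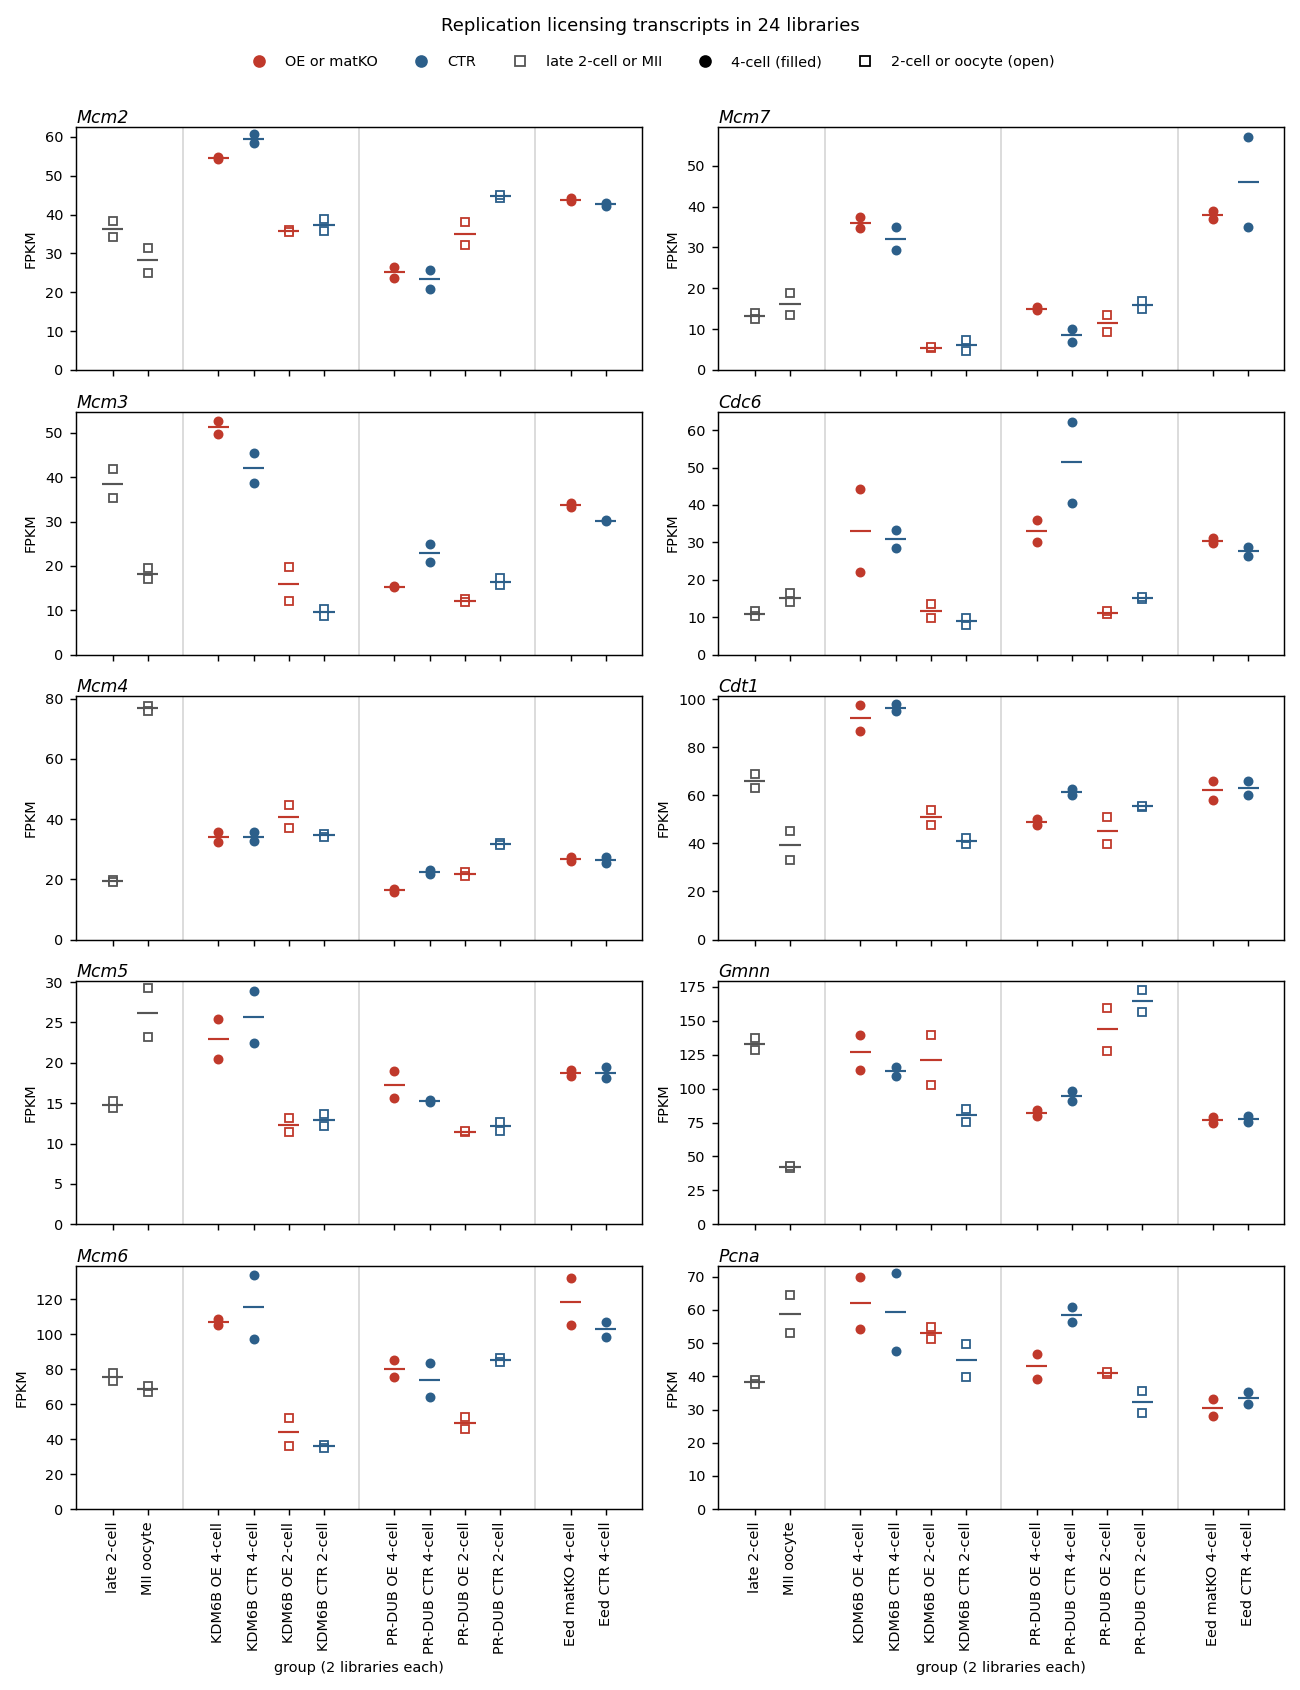
FPKM of the 10 licensing genes (y axes, linear from 0) in each library, by group (x axis); each point is 1 library and each bar the mean of 2, red for OE or matKO, blue for CTR, grey for late 2-cell and MII, with filled circles for 4-cell embryos and open squares for 2-cell embryos and oocytes. Mcm3, Mcm6 and Mcm7 stand high in the KDM6B 4-cell libraries (45.5 and 38.7, 97.3 and 134, and 29.3 and 35.0 FPKM in CTR) and low in the KDM6B 2-cell libraries (10.3 and 8.79, 36.7 and 35.2, and 4.61 and 7.45 FPKM in CTR).

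The first comparison asked how the stored transcripts of the oocyte differ from those of the late 2-cell embryo. Of the 10 genes, 3 rose (Gmnn, Mcm3 and Cdt1), 4 fell (Mcm4, Mcm5, Pcna and Cdc6), and Mcm2, Mcm6 and Mcm7 were not called. Over all 13237 genes tested, 82.7% were called, 38.0% higher and 44.6% lower, so 7 of 10 is near the background. The median log2 change of the 10 genes was -0.06, against -0.20 over all genes tested. When the libraries were rescaled to a common median ratio, the median of all genes became 0.05, and 5 of the 10 genes were then called higher and 2 lower.

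Gmnn had 137 and 128 FPKM in late 2-cell embryos and 41.5 and 43.0 FPKM in MII oocytes. Both late 2-cell libraries were above both oocyte libraries, and the mean was 3.15-fold higher (log2 change 1.63 ± 0.11 SE, limma adjusted p = 5.77e-05). Mcm3 had 41.9 and 35.3 FPKM in late 2-cell embryos and 17.0 and 19.5 FPKM in MII oocytes, with no overlap (log2 change 1.04 ± 0.15 SE, limma adjusted p = 0.00104). Cdt1 had 68.9 and 63.1 FPKM in late 2-cell embryos and 32.9 and 45.3 FPKM in MII oocytes, again apart (log2 change 0.76 ± 0.17 SE, limma adjusted p = 0.00833). The change of the inhibitor was larger than that of its target on this scale, and the difference between the 2 changes was not tested.

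Mcm4 went the other way. It had 19.9 and 19.1 FPKM in late 2-cell embryos and 77.7 and 76.0 FPKM in MII oocytes, where it was the highest of the 6 subunits (log2 change -1.93 ± 0.11 SE, limma adjusted p = 3.75e-05). Mcm5 had 14.4 and 15.3 FPKM in late 2-cell embryos and 23.2 and 29.2 FPKM in MII oocytes (log2 change -0.77 ± 0.15 SE, limma adjusted p = 0.00461). Pcna had 39.1 and 37.7 FPKM in late 2-cell embryos and 64.4 and 53.0 FPKM in MII oocytes (log2 change -0.59 ± 0.13 SE, limma adjusted p = 0.00767). In all 3 genes the oocyte libraries lay above the late 2-cell libraries. Cdc6 had 11.6 and 10.2 FPKM in late 2-cell embryos and 14.0 and 16.5 FPKM in MII oocytes (log2 change -0.45 ± 0.15 SE, limma adjusted p = 0.0354).

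Mcm6 had 78.0 and 73.4 FPKM in late 2-cell embryos and 67.0 and 70.4 FPKM in MII oocytes, and its interval on the log2 scale ran from -0.13 to 0.41. Mcm2 had 38.4 and 34.2 FPKM in late 2-cell embryos and 24.95 and 31.46 FPKM in MII oocytes, with an interval from -0.03 to 0.75. Mcm7 had 13.8 and 12.5 FPKM in late 2-cell embryos and 13.4 and 18.7 FPKM in MII oocytes, so its libraries overlapped. Rescaling ended the calls of Cdc6 and Pcna, which came to -0.16 and -0.29, and brought those of Mcm2 and Mcm6, at 0.66 and 0.45. Leaving out MII oocyte replicate 2 brought a call of Mcm2, at 0.52, and leaving out MII oocyte replicate 1 a call of Mcm7, at -0.48. Leaving out 1 library ended the call of Cdc6 in 3 of 4 cases (without either late 2-cell library or MII oocyte replicate 2), where it came to -0.53, -0.37 and -0.34.

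Other replication genes moved in both directions between the same libraries. Of the origin recognition complex, which marks origins, 3 of 6 genes fell and none rose (1 rose after rescaling), led by Orc5 at 12.8 against 182 FPKM (log2 change -3.75) and Orc3 at 3.15 against 23.7 FPKM (log2 change -2.57). Of 13 genes for assembly and firing of the helicase, 4 rose, among them Gins3 (40.1 against 7.44 FPKM) and Cdc45 (77.1 against 22.3 FPKM), which complete the active helicase, and 5 fell, among them Gins1 (10.1 against 35.3 FPKM), with 7 higher and 5 lower after rescaling. Ccne1, cyclin E1, had the largest rise of the S-phase cyclins and kinases, 453 FPKM in late 2-cell embryos and 3.37 FPKM in MII oocytes. In that list 6 of 8 rose and 2 fell. Of the 8 single-strand binding and fork protection genes, 6 fell, led by Rpa1, a subunit of the single-strand DNA binding protein, at 2.35 against 42.3 FPKM, and 2 rose, with 5 lower and 2 higher after rescaling. Of 12 polymerase and primase genes, 7 fell and 1 rose (6 and 1 after rescaling), among the falls Pold3 (28.5 against 113 FPKM), an accessory subunit of polymerase delta. Of 15 clamp loader and PCNA partner genes, 8 fell and 3 rose (6 and 5 after rescaling), among the falls Uhrf1 (20.3 against 218 FPKM) and Dnmt1 (28.2 against 226 FPKM), which maintain DNA methylation behind the fork. Of 11 genes that degrade or restrain licensing factors, 3 rose, including Cdc20 (101 against 18.2 FPKM), an activator of the anaphase-promoting complex, and 6 fell, including Fbxo5 (19.0 against 77.4 FPKM), an inhibitor of that complex that also protects geminin, with 4 higher and 5 lower after rescaling.

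The second comparison asked how the 10 genes differ between 4-cell and 2-cell control embryos, and the 2 control series gave different answers. In KDM6B CTR embryos, 8 of 10 genes rose at the 4-cell stage and none fell, with 64.2% of the 15055 genes tested called, 38.0% higher and 26.1% lower. The median log2 change of the 10 genes was 1.07, against 0.28 over all genes tested. In PR-DUB CTR embryos, 2 of 10 rose and 4 fell, with 56.7% of genes called, 26.5% higher and 30.2% lower. The median log2 change of the 10 genes was -0.04, the same as over all genes tested (-0.04). The KDM6B 4-cell libraries belong to the 12 for which the labels name NextSeq550/HiSeq2000 and the KDM6B 2-cell libraries to the 12 for which they name NextSeq550 alone, so stage and sequencing set cannot be told apart there. All PR-DUB libraries are in the NextSeq550 set. Kdm6b stood at 571 and 401 FPKM in KDM6B CTR 4-cell and 14590 and 14740 FPKM in KDM6B CTR 2-cell libraries. Its level was far lower in the PR-DUB libraries. In the KDM6B series the part of the Kdm6b level cannot be told apart from stage either.

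**Figure D2:**
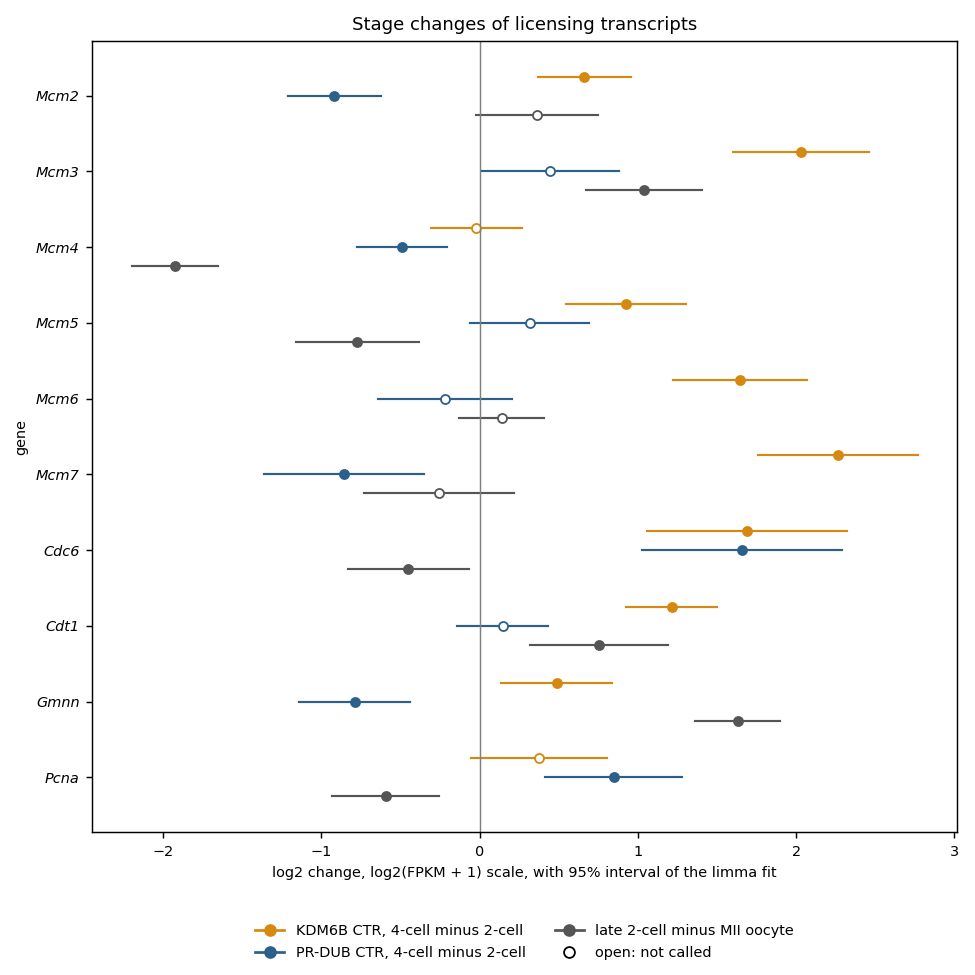
Log2 change of each gene on the log2(FPKM + 1) scale (x axis) for KDM6B CTR 4-cell minus 2-cell (orange), PR-DUB CTR 4-cell minus 2-cell (blue) and late 2-cell minus MII oocyte (grey); points are limma estimates with 95% intervals, filled where called at adjusted p under 0.05. Mcm7 stands at 2.26 in KDM6B CTR and -0.86 in PR-DUB CTR, while Cdc6 stands at 1.69 and 1.66.

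Helicase subunits carried most of the contrast between the 2 series. Mcm7 had 29.3 and 35.0 FPKM in KDM6B CTR 4-cell and 4.61 and 7.45 FPKM in KDM6B CTR 2-cell libraries (log2 change 2.26 ± 0.23 SE, limma adjusted p = 3.55e-06). In PR-DUB CTR embryos Mcm7 had 6.95 and 10.1 FPKM at the 4-cell and 17.0 and 15.0 FPKM at the 2-cell stage (log2 change -0.86 ± 0.23 SE, limma adjusted p = 0.00728). The libraries of the 2 stages did not overlap in either series, and they lay in opposite order. Mcm2 showed the same reversal. It had 58.5 and 60.6 FPKM in KDM6B CTR 4-cell and 38.8 and 35.8 FPKM in KDM6B CTR 2-cell libraries (log2 change 0.66 ± 0.13 SE, limma adjusted p = 0.000902). Mcm2 in PR-DUB CTR embryos had 25.8 and 20.9 FPKM at the 4-cell and 44.4 and 45.2 FPKM at the 2-cell stage (log2 change -0.92 ± 0.13 SE, limma adjusted p = 9.14e-05).

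Mcm3 and Mcm6 rose in KDM6B CTR and were not called in PR-DUB CTR. Mcm3 had 45.5 and 38.7 FPKM in KDM6B CTR 4-cell and 10.3 and 8.79 FPKM in KDM6B CTR 2-cell libraries, a 4.40-fold higher mean (limma adjusted p = 2.29e-06). In PR-DUB CTR embryos Mcm3 had 20.9 and 24.9 FPKM at the 4-cell and 15.6 and 17.4 FPKM at the 2-cell stage (log2 change 0.45 ± 0.20 SE, limma adjusted p = 0.0714). Mcm6 had 97.3 and 134 FPKM in KDM6B CTR 4-cell and 36.7 and 35.2 FPKM in KDM6B CTR 2-cell libraries, a 3.22-fold higher mean (limma adjusted p = 1.20e-05). Both genes had their 4-cell libraries well clear of the 2-cell libraries there. Mcm6 in PR-DUB CTR embryos had 83.4 and 64.0 FPKM at the 4-cell and 86.5 and 84.2 FPKM at the 2-cell stage, with an interval from -0.64 to 0.20.

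Mcm5 had 22.4 and 28.9 FPKM in KDM6B CTR 4-cell and 13.7 and 12.2 FPKM in KDM6B CTR 2-cell libraries (log2 change 0.93 ± 0.17 SE, limma adjusted p = 0.000488), and 15.4 and 15.2 against 11.5 and 12.7 FPKM in PR-DUB CTR (log2 change 0.32 ± 0.17 SE, limma adjusted p = 0.139). Mcm4 differed from the other subunits, as it was called higher in neither series. It had 35.8 and 32.6 FPKM in KDM6B CTR 4-cell and 35.1 and 34.2 FPKM in KDM6B CTR 2-cell libraries, which overlapped, and fell in PR-DUB CTR embryos to 21.7 and 23.0 FPKM at the 4-cell stage, against 32.2 and 31.5 FPKM at the 2-cell stage (log2 change -0.49 ± 0.13 SE, limma adjusted p = 0.00670).

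Cdc6 was, before rescaling, the one gene of the 10 called higher in both control series. It had 33.5 and 28.5 FPKM in KDM6B CTR 4-cell and 7.96 and 9.92 FPKM in KDM6B CTR 2-cell libraries, a 3.46-fold higher mean (limma adjusted p = 0.000257). In PR-DUB CTR embryos Cdc6 had 40.6 and 62.3 FPKM at the 4-cell and 15.0 and 15.5 FPKM at the 2-cell stage, a 3.37-fold higher mean (limma adjusted p = 0.000375). In both series the 4-cell libraries stood above the 2-cell libraries with no overlap. Cdt1, its partner in loading, had 95.1 and 98.0 FPKM in KDM6B CTR 4-cell and 39.7 and 42.5 FPKM in KDM6B CTR 2-cell libraries (log2 change 1.21 ± 0.13 SE, limma adjusted p = 5.62e-06). Cdt1 in PR-DUB CTR embryos had 62.8 and 60.2 FPKM at the 4-cell and 55.2 and 55.7 FPKM at the 2-cell stage, with an interval from -0.14 to 0.43.

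Gmnn, the inhibitor, moved in opposite directions in the 2 series. It had 116 and 110 FPKM in KDM6B CTR 4-cell and 84.8 and 75.7 FPKM in KDM6B CTR 2-cell libraries (log2 change 0.49 ± 0.16 SE, limma adjusted p = 0.0188). In PR-DUB CTR embryos Gmnn had 98.4 and 90.9 FPKM at the 4-cell and 173 and 156 FPKM at the 2-cell stage (log2 change -0.79 ± 0.16 SE, limma adjusted p = 0.00116). The 4-cell levels of the 2 series were closer to each other than the 2-cell levels. Pcna rose in PR-DUB CTR embryos, with 56.3 and 60.8 FPKM at the 4-cell and 35.7 and 28.9 FPKM at the 2-cell stage (log2 change 0.85 ± 0.20 SE, limma adjusted p = 0.00298). In KDM6B CTR embryos Pcna had 71.1 and 47.6 FPKM at the 4-cell and 39.9 and 49.9 FPKM at the 2-cell stage, which overlapped.

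Rescaling the libraries brought the median of all genes to 0.03 in KDM6B CTR and 0.04 in PR-DUB CTR. In KDM6B CTR, 6 genes were then called higher and 1 lower, as Mcm2 (0.25) and Gmnn (0.07) were no longer called and Mcm4 was called lower at -0.43. In PR-DUB CTR, 5 were then called higher and 3 lower, with Mcm3 (0.62), Mcm5 (0.49) and Cdt1 (0.33) added to the rises and the call of Mcm4 (-0.31) lost. Mcm3 was also called in PR-DUB CTR when only the 4 libraries of that comparison were fitted. Leaving out KDM6B CTR 2-cell replicate 2 or 4-cell replicate 1 ended the call of Gmnn, at 0.41 and 0.44, leaving out KDM6B CTR 4-cell replicate 2 brought a call of Pcna, at 0.66, and leaving out PR-DUB CTR 4-cell replicate 1 ended the call of Mcm7, at -0.62.

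The difference between the 2 stage changes was then tested directly, in a comparison added after the values had been seen. The stage change in KDM6B CTR exceeded that in PR-DUB CTR for 6 of the 10 genes and was called smaller for none, with 29.5% of all genes called, 22.7% higher and 6.84% lower. The differences on the log2 scale were 3.12 ± 0.33 SE for Mcm7, 1.86 ± 0.28 SE for Mcm6, 1.58 ± 0.28 SE for Mcm3, 1.58 ± 0.19 SE for Mcm2, 1.28 ± 0.23 SE for Gmnn and 1.07 ± 0.19 SE for Cdt1 (limma adjusted p = 7.03e-05 for Mcm7 and 0.00151 for Gmnn). Cdc6 had a difference of 0.03 with an interval from -0.86 to 0.93. Of all calls, 76.8% were higher, and 45.6% after rescaling, which took the median of all genes to -0.09, against 0.32 without it. After rescaling, 5 of the 6 genes kept their call, with Mcm7 at 2.57, while Cdt1 (0.48) lost it and Pcna was called lower at -1.06. Leaving out KDM6B CTR 4-cell replicate 1 brought a call of Mcm5, at 0.79.

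The OE embryos of the 2 series differed in the same comparison for 5 genes, Mcm7 (2.14 ± 0.33 SE), Mcm3 (1.35 ± 0.28 SE), Mcm2 (1.06 ± 0.19 SE), Gmnn (0.86 ± 0.23 SE) and Cdt1 (0.73 ± 0.19 SE), with 15.9% of all genes called, 11.5% higher and 4.32% lower. Of all calls, 72.7% were higher, and 52.6% after rescaling (median of all genes 0.16 and -0.04). Mcm7, Mcm3 and Mcm2 were called in all 12 alternatives tried, and Gmnn and Cdt1 in 6 each. Without KDM6B OE 2-cell replicate 1, KDM6B OE 4-cell replicate 1 or PR-DUB OE 2-cell replicate 2, 3 of the 10 genes were called.

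Other values moved with this contrast. The summed FPKM of 9 markers of the 2-cell stage was 303 to 456 in KDM6B 4-cell and 538 to 684 in KDM6B 2-cell libraries, and 432 to 746 in PR-DUB 4-cell and 468 to 522 in PR-DUB 2-cell libraries. In KDM6B CTR, 6 of these 9 markers fell and 2 rose at the 4-cell stage, and in PR-DUB CTR 1 fell and 1 rose. Zfp352, a 2-cell stage transcript, had 11.9 FPKM in KDM6B CTR 4-cell and 179 FPKM in KDM6B CTR 2-cell libraries on average. Obox6 was the highest of the list in every 4-cell library of both series. The oocyte markers fell in 7 of 9 cases in KDM6B CTR, where 1 rose, and in 8 of 9 in PR-DUB CTR. The oocyte marker sum at the 2-cell stage was 725 and 766 FPKM in KDM6B CTR and 313 and 326 FPKM in PR-DUB CTR. These 2-cell libraries are all in the NextSeq550 set, so the series differed there within 1 sequencing set. The part of embryo timing in the results was not tested. In pooled embryos, fewer cells with a transcript and less of it per cell cannot be told apart.

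The ratio of the Gmnn to the Cdt1 transcript differed between 4-cell and 2-cell libraries in both series. Protein was not measured in these libraries, so the balance of inhibitor and loading factor is not known. In the KDM6B series stage cannot be told apart from sequencing set or from the level of Kdm6b, and this ratio was not tested. The ratio of Gmnn to Cdt1 FPKM was 1.12 to 1.43 in the 4 KDM6B 4-cell and 1.78 to 2.59 in the 4 KDM6B 2-cell libraries. It was 1.51 to 1.76 in the 4 PR-DUB 4-cell and 2.81 to 3.21 in the 4 PR-DUB 2-cell libraries. Every 4-cell library had a lower ratio than every 2-cell library of these 2 series. Eed 4-cell libraries had ratios of 1.21 to 1.29, late 2-cell libraries 1.99 and 2.04, and MII oocytes 0.948 and 1.26, in tables normalised separately. A ratio within a library does not depend on the library's scaling, and it shows unequal change of the 2 genes only.

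**Figure D3:**
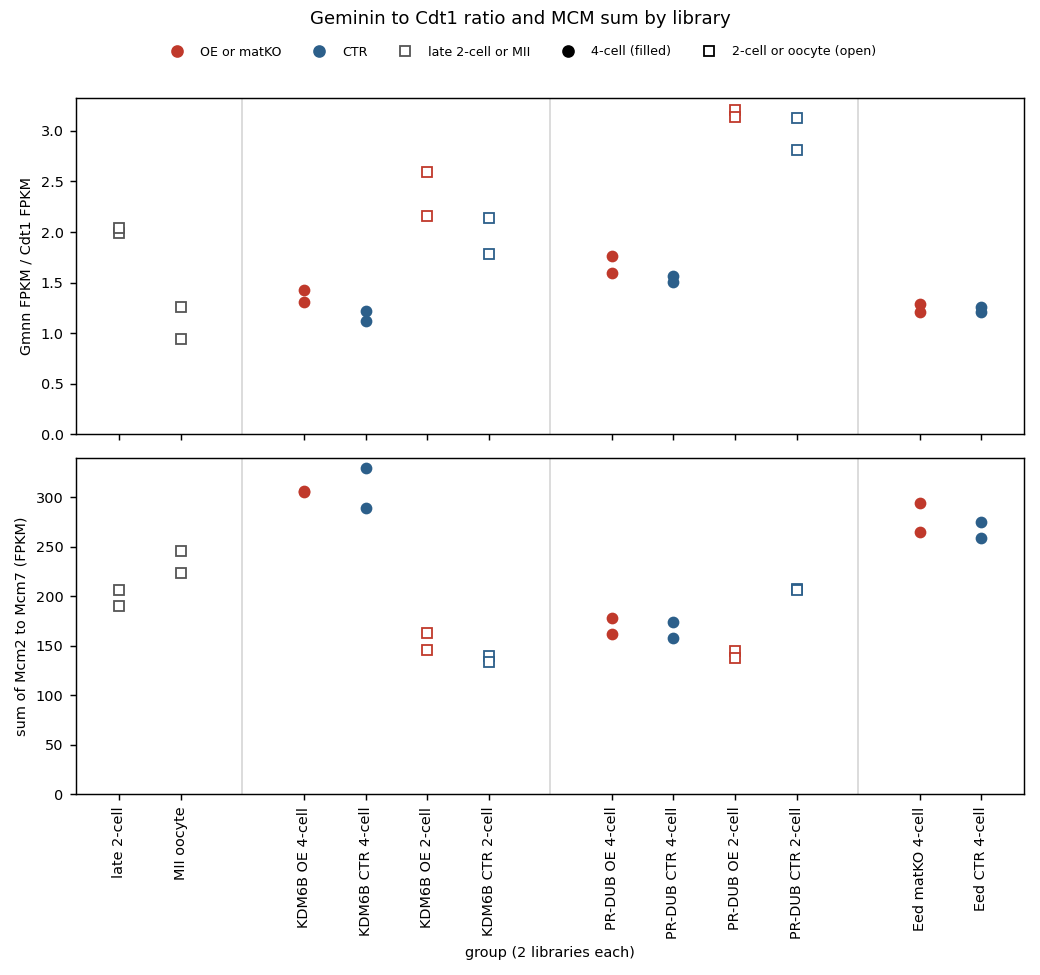
Ratio of Gmnn to Cdt1 FPKM (top) and the sum of Mcm2 to Mcm7 FPKM (bottom) in each library, by group, both y axes linear from 0; each point is 1 library, coloured and shaped as in the plot of FPKM by library. The Gmnn to Cdt1 ratio is 1.12 to 1.76 in the 8 PR-DUB and KDM6B 4-cell libraries and 1.78 to 3.21 in the 8 2-cell libraries, and the MCM sum is 289 to 330 in KDM6B 4-cell libraries.

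The summed FPKM of Mcm2 to Mcm7 was 289 to 330 in KDM6B 4-cell and 134 to 163 in KDM6B 2-cell libraries. In PR-DUB CTR embryos the sum was lower at the 4-cell stage, with 174 and 158 FPKM at the 4-cell and 207 and 206 FPKM at the 2-cell stage. In PR-DUB OE embryos it was higher at the 4-cell stage, with 177 and 161 FPKM at the 4-cell and 144 and 138 FPKM at the 2-cell stage. The stages did not overlap within CTR or within OE, and these sums were not tested. As a share of all FPKM in a library, the order in PR-DUB OE was the other way. That share was 0.0240% and 0.0230% at the 4-cell and 0.0264% and 0.0252% at the 2-cell stage. In PR-DUB CTR it was lower at the 4-cell stage too, with 0.0236% and 0.0209% against 0.0367% and 0.0379%. The order in the KDM6B libraries stayed the same. Eed 4-cell libraries, from another cross and another table, summed to 259 to 294 FPKM, nearer to the KDM6B than to the PR-DUB 4-cell libraries. The Eed and KDM6B 4-cell libraries are both in the NextSeq550/HiSeq2000 set and the PR-DUB libraries are not, so this likeness cannot be told apart from sequencing set. Late 2-cell libraries summed to 206 and 190 FPKM and MII oocytes to 223 and 245 FPKM.

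Genes that act around licensing also moved between stages in the controls. Of 8 genes of nucleotide supply, 5 rose and 2 fell in each series (4 and 2 in KDM6B CTR after rescaling), among the rises Rrm1 (30.6 against 3.12 FPKM in KDM6B CTR and 19.1 against 3.90 FPKM in PR-DUB CTR), the large subunit of ribonucleotide reductase. The p53-inducible subunit Rrm2b fell to 14.4 FPKM at the 4-cell stage, against 151 FPKM at the 2-cell stage, in KDM6B CTR and to 9.46 FPKM, against 124 FPKM, in PR-DUB CTR. Of 11 polymerase and primase genes, 6 rose and none fell in KDM6B CTR, and 6 rose and 2 fell in PR-DUB CTR. After rescaling 6 rose and 2 fell in KDM6B CTR, and 7 rose and 2 fell in PR-DUB CTR. Pold1, the catalytic subunit of polymerase delta, had 9.21 against 0.108 FPKM in KDM6B CTR and 6.03 against 0.191 FPKM in PR-DUB CTR.

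Of 12 tested genes of the E2F and RB family, 1 rose and 6 fell in KDM6B CTR, and 1 rose and 8 fell in PR-DUB CTR, with 8 lower in each after rescaling. E2f5 fell to 20.0 FPKM, against 371 FPKM, in KDM6B CTR and to 12.6 FPKM, against 147 FPKM, in PR-DUB CTR. E2f4, a repressor E2F, fell to 24.5 FPKM, against 147 FPKM, and to 9.13 FPKM, against 104 FPKM. Of 13 assembly and firing genes, 8 rose and 3 fell in KDM6B CTR, and 5 rose and 6 fell in PR-DUB CTR (8 and 4, and 6 and 6, after rescaling). Gins1, a subunit of the GINS complex of the helicase, rose in both (27.8 against 3.54 FPKM and 27.9 against 2.54 FPKM). Dbf4, the activator of the CDC7 kinase, fell in PR-DUB CTR (104 against 387 FPKM). It was lower at the 4-cell stage in KDM6B CTR too, with 188 and 177 FPKM against 435 and 429 FPKM at the 2-cell stage. Of the 6 origin recognition genes, 3 rose and 1 fell in KDM6B CTR, and 2 rose and 2 fell in PR-DUB CTR (2 and 2, and 3 and 1, after rescaling), with Orc4 at 30.01 against 11.9 FPKM and 86.9 against 15.0 FPKM. Of the 15 clamp loader and PCNA partner genes, 6 rose and 2 fell in KDM6B CTR, and 4 rose and 6 fell in PR-DUB CTR (5 and 2, and 5 and 4, after rescaling). Of the 11 genes that degrade or restrain licensing factors, 3 rose and 4 fell in KDM6B CTR, and 3 rose and 5 fell in PR-DUB CTR (3 and 7, and 4 and 5, after rescaling).

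The third comparison asked whether licensing transcripts differed between the libraries labelled PR-DUB OE and PR-DUB CTR. The list of 7 targeted genes held Bap1, Asxl1 and Asxl2 beside Kdm6b, Kdm6a, Eed and Ezh2. Of these 7, 0 were called higher in OE at either stage, and 1 was called lower at the 4-cell stage. The comparison therefore holds no called rise of a targeted transcript. At the 4-cell stage 2 of the 10 genes were called, Mcm7 higher and Mcm4 lower, with 15.7% of all genes called, 12.3% higher and 3.41% lower. Mcm7 had 15.3 and 14.6 FPKM in OE and 6.95 and 10.1 FPKM in CTR embryos (log2 change 0.77 ± 0.23 SE, limma adjusted p = 0.0431). Mcm4 had 15.9 and 16.7 FPKM in OE and 21.7 and 23.0 FPKM in CTR embryos (log2 change -0.43 ± 0.13 SE, limma adjusted p = 0.0436). Neither gene's libraries overlapped. Over 9 alternatives Mcm7 was called in 1 and Mcm4 in 3, with adjusted p from 0.0491 to 0.278 for Mcm7 and from 0.0129 to 0.185 for Mcm4.

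Of the other 8 genes at the 4-cell stage, Mcm3 had 15.4 and 15.3 FPKM in OE and 20.9 and 24.9 FPKM in CTR embryos (log2 change -0.54 ± 0.20 SE, limma adjusted p = 0.0851). Cdc6 had 36.10 and 30.01 FPKM in OE and 40.6 and 62.3 FPKM in CTR embryos (limma adjusted p = 0.199). Cdt1 had 50.1 and 47.8 FPKM in OE and 62.8 and 60.2 FPKM in CTR embryos (limma adjusted p = 0.122). All 3 stood lower in both OE libraries than in both CTR libraries. Rescaling took the median of all genes to 0, and 3 genes were then called, all lower: Mcm3 (-0.74), Mcm4 (-0.63) and Cdt1 (-0.53). Of all calls, 78.3% were higher, and 55.6% after rescaling. Of the origin recognition genes, 3 of 6 fell and none rose, Orc1 (25.7 against 51.0 FPKM), Orc6 (41.4 against 66.9 FPKM) and Orc4 (54.9 against 86.9 FPKM), and these 3 calls were made with and without rescaling.

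At the 2-cell stage none of the 10 genes was called by limma, with 1.18% of all genes called, 0.983% higher and 0.193% lower. An unadjusted p under 0.05 was found for 4 of 10, all lower, against 2130 of 15055 genes in either direction. Of the 10, 9 had a negative log2 change. Mcm6 had 52.6 and 45.7 FPKM in OE and 86.5 and 84.2 FPKM in CTR embryos (log2 change -0.79 ± 0.19 SE, limma adjusted p = 0.0815). Mcm4 had 22.3 and 21.2 FPKM in OE and 32.2 and 31.5 FPKM in CTR embryos (log2 change -0.53 ± 0.13 SE, limma adjusted p = 0.0815). The OE libraries lay below the CTR libraries in both genes, without reaching the threshold. The median log2 change of the 10 genes was -0.37 at the 2-cell stage and -0.26 at the 4-cell stage, against 0.08 and 0.13 over all genes tested. No gene of the 10 was called different in its PR-DUB effect between 4-cell and 2-cell embryos (0 of 10 by limma). Of all genes 1.74% were called, 1.03% higher and 0.711% lower. An unadjusted p under 0.05 was found for 4 of 10, against 2634 of 15055 genes. Mcm7 had the largest difference at 1.24 ± 0.33 SE (limma adjusted p = 0.0803). Of all calls in that test 59.2% were higher, and 37.2% after rescaling (median of all genes 0.07 and -0.04).

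Between the libraries labelled KDM6B OE and KDM6B CTR, none of the 10 genes was called at either stage by limma. Kdm6b itself was not called higher in the libraries labelled OE at either stage, so this comparison holds no called rise of the targeted transcript. At the 4-cell stage 0.359% of all genes were called and no gene of the 10 had an unadjusted p under 0.05. The widest interval was that of Cdc6, from -0.61 to 0.65, with 44.3 and 22.0 FPKM in OE and 33.5 and 28.5 FPKM in CTR embryos. At the 2-cell stage 0.757% of all genes were called, 0.604% higher. An unadjusted p under 0.05 was found for 3 of 10 genes, all higher, against 2161 of 15055 genes in either direction. Mcm3 had 12.2 and 19.7 FPKM in OE and 10.3 and 8.79 FPKM in CTR embryos (log2 change 0.65 ± 0.20 SE, limma adjusted p = 0.141). Gmnn had 103 and 140 FPKM in OE and 84.8 and 75.7 FPKM in CTR embryos (log2 change 0.58 ± 0.16 SE, limma adjusted p = 0.111). Both genes stood higher in both OE libraries, with a wide spread between them, and without OE replicate 1 both were called, at 0.98 for Mcm3 and 0.79 for Gmnn. Of all calls 79.8% were higher, and 60.2% after rescaling.

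**Figure D4:**
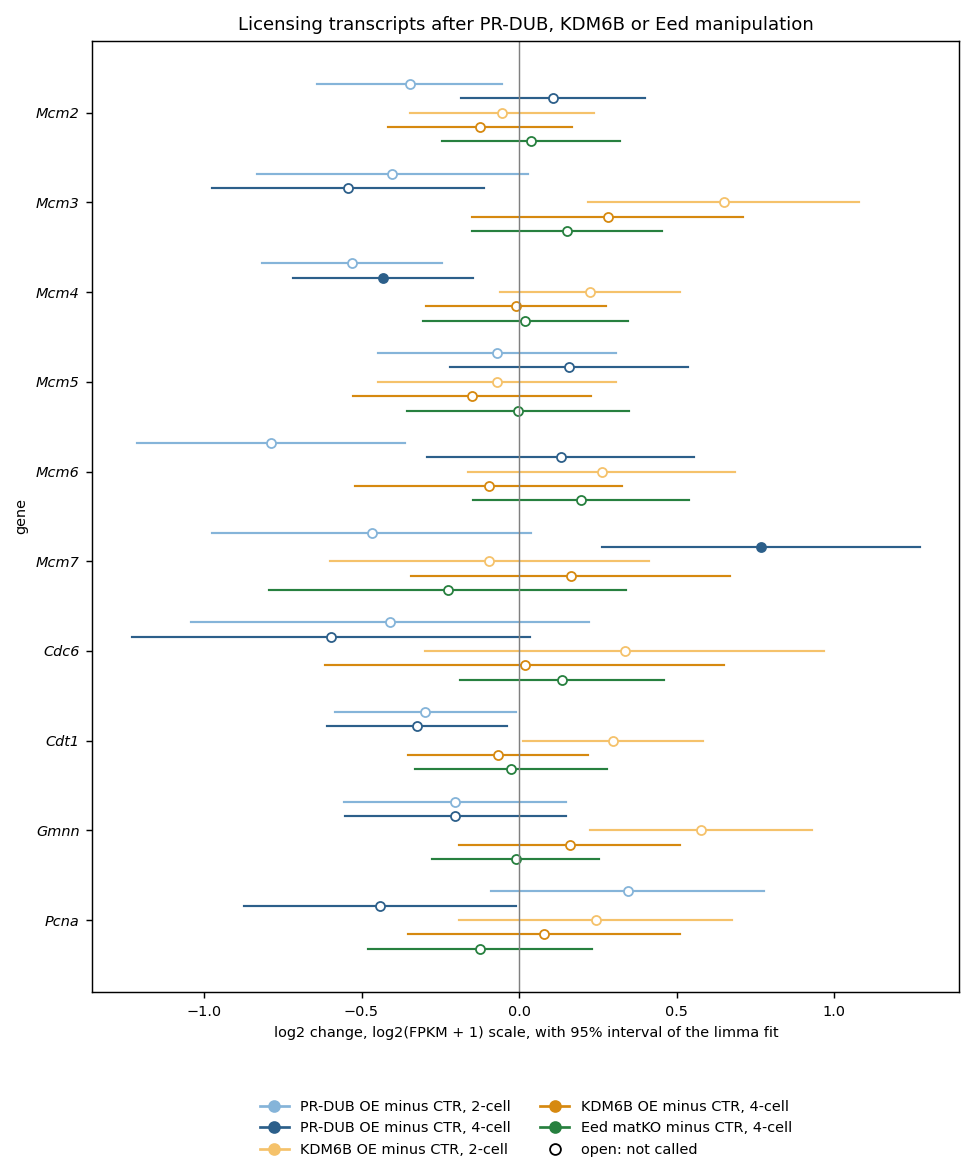
Log2 change of each gene on the log2(FPKM + 1) scale (x axis) for PR-DUB OE minus CTR, KDM6B OE minus CTR and Eed matKO minus CTR at the stages named in the key; points are limma estimates with 95% intervals, filled where called at adjusted p under 0.05. Only Mcm7 (0.77) and Mcm4 (-0.43) in PR-DUB OE 4-cell embryos are filled.

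The PR-DUB and KDM6B effects were also set against each other. By limma, 0 of 10 genes were called at the 4-cell stage (9.27% of all genes called, 7.24% higher and 2.03% lower). An unadjusted p under 0.05 was found there for 2 of 10, both lower, against 3856 of 15055 genes in either direction. At the 2-cell stage 0 of 10 were called (1.72% of all genes called, 1.14% lower). There 5 of 10, all lower, had an unadjusted p under 0.05, against 2677 of 15055 genes in either direction. At the 2-cell stage the PR-DUB effect minus the KDM6B effect was -1.05 ± 0.28 SE for Mcm3, -1.05 ± 0.28 SE for Mcm6 and -0.76 ± 0.19 SE for Mcm4 (limma adjusted p = 0.0633 for Mcm4). Without KDM6B OE 2-cell replicate 1, Mcm3 (-1.38), Mcm6 (-1.31) and Gmnn (-0.997) were called. At the 4-cell stage Mcm3 had -0.82 ± 0.28 SE (limma adjusted p = 0.0868), and after rescaling it was the one gene called, at -1.06. There 78.1% of all calls were higher, and 53.4% after rescaling (median of all genes 0.19 and 0.03). The KDM6B effect at the 4-cell stage minus that at the 2-cell stage was called for 0 of 10 genes by limma (0.139% of all genes called, 0.0399% higher and 0.0996% lower, 0 of 10 at an unadjusted p under 0.05). Of all calls 28.6% were higher, and 47.1% after rescaling (median of all genes -0.07 and 0.04).

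Between Eed matKO and Eed CTR embryos, whose Eed transcript was not called different, limma called none of the 10 genes (0 of 10, 0.0171% of 11679 genes called, 0 of 10 at an unadjusted p under 0.05). Mcm2 had 44.2 and 43.4 FPKM in matKO and 43.0 and 42.2 FPKM in CTR embryos, with an interval from -0.24 to 0.32. Mcm3 had 33.2 and 34.2 FPKM in matKO and 30.4 and 30.1 FPKM in CTR embryos, with an interval from -0.15 to 0.45. Gmnn had 75.0 and 79.4 FPKM in matKO and 80.0 and 75.6 FPKM in CTR embryos, with an interval from -0.28 to 0.25. Mcm7 had 37.0 and 39.0 FPKM in matKO and 56.9 and 34.9 FPKM in CTR embryos, and the spread between its CTR libraries gave it the widest interval, from -0.79 to 0.34. The fit has 2 residual degrees of freedom per gene, and the intervals use limma's variance, moderated over all genes tested. A p over the threshold does not show that the groups are alike.

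Across the 16 PR-DUB and KDM6B libraries, which come from the same cross and share stage and sequencing set in blocks, the 10 genes did not form one pattern. On the log2(FPKM + 1) scale Mcm3 and Cdt1 were the closest pair (Pearson r = 0.96 over 16 libraries) and Mcm4 and Cdc6 the most opposed (r = -0.37). Mcm6 and Mcm7 had r = 0.86, while Mcm4 had r = -0.14 with Mcm6 and 0.04 with Mcm5. Ordered by mean FPKM over the 8 groups, Mcm3 was lowest in KDM6B CTR 2-cell and highest in KDM6B OE 4-cell embryos, and Gmnn lowest in KDM6B CTR 2-cell and highest in PR-DUB CTR 2-cell embryos. Neighbouring groups in that order overlapped in 2 of 7 pairs for Mcm3 and in 5 of 7 for Mcm6, Mcm7 and Gmnn. The genes most like the mean of the 6 standardised MCM profiles were Rpl17-ps4, Gm10259, Rpl36a-ps3, Gm26035 and Gm9242 (r = 0.96 to 0.97 over 16 libraries). Closest to Cdc6 were Rpl18, Gm8730 and Prpf39 (r = 0.96 to 0.97), to Cdt1 Gm12624 and Gm6654 (r = 0.97 and 0.96), to Gmnn Gm13608, Med4 and BC027231 (r = 0.92 to 0.93), and to Pcna Rassf1, Gm6286 and Orc2 (r = 0.81 to 0.86).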

How the data were processed

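The authors deposited 3 tables of FPKM values per gene for 24 libraries of pooled mouse oocytes or embryos. The submitters' processing notes name Trim Galore 0.6.5, HISAT2 2.1.0, StringTie 1.3.3b and mm10. The sources used here give neither the annotation release nor the use of strand, and gene IDs were matched to GENCODE, where 45143, 45143 and 55394 of them were found. The 10 genes and the gene lists were chosen with earlier results of these data known.

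Each table was tested on log2(FPKM + 1) with limma 3.58.1 in R 4.3.3 (moderated variance with a mean trend), over genes at 1 FPKM or more in at least 2 libraries. The PR-DUB and KDM6B table was fitted as 8 group means that share 1 estimate of spread. Genes were called at a Benjamini-Hochberg adjusted p under 0.05 over all genes tested, and fold changes on this scale understate changes of low genes. An exact permutation test of 2 against 2 libraries cannot go below 0.333. The fitting code was tested on simulated data.

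Depth was estimated from genes with 1 annotated transcript, by the most common value of FPKM times length within a preset low range. That value was shared by 45 to 266 genes per library and was assumed to be 1 fragment. It gave 23.1 to 41.1 fragments per library for a 2-kb gene at 1 FPKM. Between 10855 and 11801 genes reached 1 FPKM in a library. No count test was run. Where labels conflicted, titles were followed for the KDM6B OE 2-cell libraries and the manipulation field for the Eed libraries.

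Alternatives were a pseudocount of 0.1, no filter, libraries rescaled to a common median ratio, the replicate number as a block, only the libraries of a comparison, and leaving out each library. Named genes were the 10 listed genes, up to 4 of the largest called changes in each list, and the genes whose pattern was most like theirs, of which 1 is not reported here.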

Additional observations from a re-analysis of the deposited data

Results flagged for a closer look

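The stage change from 2-cell to 4-cell embryos differed between the KDM6B and PR-DUB series for several of the 10 genes, by limma's test of the difference itself. In CTR embryos the KDM6B change minus the PR-DUB change was 3.12 for Mcm7, 1.86 for Mcm6, 1.58 for Mcm3, 1.58 for Mcm2, 1.28 for Gmnn and 1.07 for Cdt1 on the log2 scale. In OE embryos it was 2.14 for Mcm7, 1.35 for Mcm3, 1.06 for Mcm2, 0.86 for Gmnn and 0.73 for Cdt1. The test was added after the values had been seen. The 2 comparisons use the means of different libraries, but they come from 1 fit that shares 1 estimate of spread per gene. They are therefore not independent tests. KDM6B 4-cell libraries are in another sequencing set than KDM6B 2-cell libraries, and the part of that set in these differences cannot be told apart from stage. The level of Kdm6b also differed between these KDM6B libraries, in CTR and OE alike, and its part cannot be told apart from stage either.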

How the results depend on the processing

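Of 1420 values of single genes under alternatives, 1361 stayed on their side of the threshold, 39 lost a call, 20 gained one and none reversed a call. Of the 1361, 73 had no call and changed sign. For PR-DUB OE at the 4-cell stage, 2 of the 10 genes were called, against 1 with a pseudocount of 0.1, 1 with no filter, 0 with the replicate block, 0 with the 4 libraries alone and 0 to 1 without a replicate. Rescaling gave 1 called gene in the PR-DUB minus KDM6B effect at the 4-cell stage. The OE stage difference had 5 called genes, and 3 with rescaling, 3 with the replicate block and 3 to 5 without a replicate. Leaving out a replicate gave 0 to 2 for KDM6B OE 2-cell and 0 to 3 for the PR-DUB minus KDM6B effect at the 2-cell stage.

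Counts over all genes moved more. KDM6B OE 2-cell had 114 calls, and 195 with a pseudocount of 0.1, 0 with the block, 1 with its own libraries and 6 to 353 without a replicate. KDM6B OE 4-cell had 54, and 24, 2, 1 and 15 to 91 under the same settings, and 106 with no filter. PR-DUB OE 2-cell had 177, and 2 with the block, 4 with its own libraries and 7 to 20 without a replicate. PR-DUB OE 4-cell had 2368, and 1007 to 1254 without a replicate. The PR-DUB effect at 4-cell minus 2-cell had 262, and 140 with a pseudocount of 0.1, 5 with the block and 20 to 126 without a replicate. The same KDM6B difference had 21, and 50 with no filter, 0 with the block and 1 to 65 without a replicate. The PR-DUB minus KDM6B effect had 259 at the 2-cell stage, and 1 with the block and 2 to 517 without a replicate. It had 1395 at the 4-cell stage, and 528 with the block and 579 to 1531 without a replicate. The OE stage difference had 2388, and 1509 with the block and 1291 to 2219 without a replicate. Eed matKO had 2, and 0 with no filter and 0 to 6 without a replicate. The cause of these moves was not tested.

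The difference between the 2 replicates of a group had correlations of -0.0622 to 0.0366 between the groups of a comparison. Over all genes tested this shows no pairing by replicate number, and it cannot show whether single genes were paired. Why calls were lost under the block was not tested. Each group has 2 libraries, and genes near 1 FPKM rest on few fragments.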

Other observations

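D-type cyclins, which drive entry into the cell cycle with CDK4 and CDK6, were higher in PR-DUB OE than in PR-DUB CTR 4-cell embryos. Ccnd3 averaged 14.2 FPKM in OE and 5.12 FPKM in CTR embryos (limma adjusted p = 0.0117). Ccnd1 averaged 4.21 FPKM in OE and 0.699 FPKM in CTR embryos, and Ccnd2 3.94 FPKM in OE and 0.433 FPKM in CTR embryos. Cdk6 averaged 1.34 FPKM in OE and 0.338 FPKM in CTR embryos. These were the 4 genes called higher of 11 tested S-phase cyclins and kinases, with none lower, while after rescaling 4 were higher and 3 lower. Over all genes tested, 12.3% were called higher and 3.41% lower without rescaling. In CTR embryos Ccnd1, Ccnd2 and Cdk6 averaged under 1 FPKM. Alternatives other than rescaling were not read for these genes. Rpa1 and Rpa3, subunits of the single-strand DNA binding protein, averaged 7.54 and 13.7 FPKM in OE and 2.46 and 5.01 FPKM in CTR embryos.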
